A study of Mus musculus with 9 samples.

Results

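The genes described here make, move and break down GABA (gamma-aminobutyric acid), the main inhibitory transmitter of the adult brain. The 7 members are Gad1, Gad2, Slc32a1, Slc6a11, Slc6a13, Abat and Aldh5a1, 7 of the 24170 genes counted, and they were chosen by name, with earlier results of these data known. RNA was sequenced from 3 types of mouse primary culture in 3 biological replicate experiments each, which gave 9 libraries. The DRG group holds sensory neurons taken from dorsal root ganglia at embryonic day 13.5 and kept in culture for about 2 weeks. The OPC group holds oligodendrocyte progenitor cells, the dividing precursors of the myelin-forming cells, taken from the cortex between postnatal days 6 and 9 and grown for 6 to 7 days. The Astrocytes group holds cells taken from the cortex between postnatal days 1 and 3 and grown to confluence over about 21 days. The glial cultures came from pups of either sex, and the labels used here name no strain, genotype or treatment. Donor age and days in culture differ between all 3 groups, and the tissue of origin differs between DRG and the 2 glial groups; their part cannot be told apart from that of cell type.

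GABA is made from glutamate by glutamate decarboxylase, an enzyme that needs vitamin B6 and has a form encoded by Gad1 and another encoded by Gad2. Slc32a1 encodes the carrier that loads GABA and glycine into synaptic vesicles. Released GABA is taken up through plasma membrane carriers of the SLC6 family. GAT3 (Slc6a11) is one of the main ones of the brain, and GAT2 (Slc6a13) is known mostly from the meninges, liver and kidney. Inside the cell, GABA transaminase (Abat) turns GABA into succinic semialdehyde, and succinic semialdehyde dehydrogenase (Aldh5a1) oxidises that to succinate, which enters the citric acid cycle. In the brain, release of GABA is the trade of inhibitory interneurons, uptake is shared by neurons and astrocytes, and OPC are known to receive GABA-releasing synapses. Most sensory neurons of the dorsal root ganglia signal with glutamate.

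Between 30710093 and 53594210 reads per library were assigned to a transcript, of 56683071 to 93305766 reads in all. Levels are given as CPM, read counts scaled to library sizes that were adjusted by the trimmed mean of M-values. By the sums over marker lists, the labelled cell types carried their markers. Summed over 7 sensory neuron genes (among them Tubb3, Pou4f1, Isl1 and Avil), the DRG libraries held 8229 to 11020 CPM, against 69.9 to 130 CPM in OPC and 9.57 to 23.7 CPM in Astrocytes. Tubb3 led these sums, at means of 6320 CPM in DRG, 94.3 CPM in OPC and 13.3 CPM in Astrocytes. Pou4f1, Isl1 and Avil averaged 347, 196 and 2209 CPM in DRG. Their means were at most 1.86 CPM in OPC and at most 2.01 CPM in Astrocytes. Summed over 7 OPC genes (among them Pdgfra, Cspg4 and Olig2), the OPC libraries held 5101 to 6860 CPM, against 10.3 to 24.9 CPM in DRG and 341 to 1311 CPM in Astrocytes. Summed over 8 astrocyte genes (among them Gfap, Aqp4 and Aldh1l1), the Astrocytes libraries held 6000 to 7556 CPM, against 8.84 to 27.4 CPM in DRG and 766 to 1052 CPM in OPC. Not every gene of the 2 glial lists followed its sum. C1ql1 of the OPC list averaged 61.6 CPM in OPC and 67.1 CPM in Astrocytes. Slc1a2 of the astrocyte list averaged 3.66 CPM in Astrocytes and 4.43 CPM in OPC, and Gjb6 had 1 read in Astrocytes. Slc1a2 has 3 transcripts in the counts and Gjb6 has 2, and reads shared by transcripts of a gene may not have been counted. Replicate 1 of Astrocytes stood apart by its microglial genes, whose sum over 7 genes was 2421 CPM, against 423 and 389 CPM in replicates 2 and 3. Replicate 1 of OPC stood apart by Gpr17, a gene of precursors on the way to myelin-forming cells, at 786 CPM against 9.44 and 9.84 CPM, and by Myrf, a regulator of myelin genes, at 63.8 CPM against 5.41 and 6.14 CPM.

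Promoter sequences are shown for Gad1, Gad2 and Slc6a11, since Gad1 and Slc6a11 had the widest differences of the tested members in both DRG comparisons and Gad2 stayed low beside Gad1. Each window runs from 250 bases before to 50 bases after an annotated start of the gene, from RefSeq on GRCm38.p6, which held 32851 such windows; 6 of the 7 members matched and Abat did not. Capitals mark a SOX-type motif in Gad1 (chr2:70561879-70562178, plus strand), the core of the REST element in Gad2 (chr2:22622077-22622376, plus strand) and the GC box in Slc6a11 (chr6:114130991-114131290, plus strand), each read 5′ to 3′.
Gad1: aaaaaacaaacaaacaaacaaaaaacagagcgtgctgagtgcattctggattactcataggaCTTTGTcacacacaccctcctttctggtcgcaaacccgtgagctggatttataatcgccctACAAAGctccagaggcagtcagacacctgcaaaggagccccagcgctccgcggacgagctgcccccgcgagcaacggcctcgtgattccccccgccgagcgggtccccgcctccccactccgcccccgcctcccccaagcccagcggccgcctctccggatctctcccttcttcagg
Gad2: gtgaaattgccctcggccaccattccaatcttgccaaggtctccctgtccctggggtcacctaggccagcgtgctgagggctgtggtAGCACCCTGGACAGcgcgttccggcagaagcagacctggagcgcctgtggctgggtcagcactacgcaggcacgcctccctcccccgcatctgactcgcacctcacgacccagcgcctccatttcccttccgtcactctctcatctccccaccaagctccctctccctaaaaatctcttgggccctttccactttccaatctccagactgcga
Slc6a11: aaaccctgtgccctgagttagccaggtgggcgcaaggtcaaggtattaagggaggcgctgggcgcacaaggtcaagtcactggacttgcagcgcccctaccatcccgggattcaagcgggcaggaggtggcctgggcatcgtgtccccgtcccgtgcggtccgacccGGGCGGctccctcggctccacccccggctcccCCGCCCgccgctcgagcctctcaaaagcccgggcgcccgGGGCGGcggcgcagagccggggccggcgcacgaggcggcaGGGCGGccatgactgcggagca
The windows were searched on both strands for 8 short motifs. The SOX-type letters ACAAAG stood in Gad1 at positions -188 (on the other strand, so in its reverse-complement form) and -127 from the start, and in 18.7% of all windows. The core of the REST element, through which REST silences neuronal genes, was searched as the capitals shown in Gad2 with their 2 centre bases left free; it stood in Gad2 at position -163 and in 0.0517% of all windows (17 of 32851). The GC box GGGCGG stood in Slc6a11 at 4 places, one of them in the reverse-complement form, in Gad1 at 1, in 1 of the 3 windows of Slc6a13 at 2, and in 35.7% of all windows. The general E-box CANNTG stood in 72.3% of all windows, its special case CATATG in 3.91%, the second SOX-type spelling AACAAT in 10.7%, TATAAA in 13.6% and CCAAT in 37.4%. Neither CATATG nor AACAAT stood in a member's window. The windows of Gad1, Gad2 and Slc6a11 were 60.0%, 61.3% and 72.3% G or C, against a median of 52.7% over all windows. A match describes the letters only.

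Of the 7 members, 5 had enough reads for a test, and Slc32a1 and Slc6a13 did not. Differences are log2 fold changes of the first-named cell type over the second, each with its standard error (SE), from edgeR's quasi-likelihood test with Benjamini-Hochberg adjustment over 14848 genes; an adjusted p under 0.05 counts as passing. In DRG against Astrocytes, 3 of the 5 tested members were lower and 0 were higher. In that comparison 60.2% of all tested genes passed, 32.8% lower and 27.4% higher in DRG. In DRG against OPC, 3 of the 5 were again lower and 0 higher, beside 59.5% of all tested genes passing, 31.1% lower and 28.4% higher in DRG. In OPC against Astrocytes, 1 of the 5 was higher and 1 lower, beside 51.8% passing, 26.3% higher and 25.5% lower in OPC. The comparisons share libraries, so they are not independent of each other. The median difference of the 5 tested members was -1.69 in DRG against Astrocytes, -1.84 in DRG against OPC and 0.83 in OPC against Astrocytes, and that of all tested genes was -0.13, -0.08 and 0.09.

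**Figure D1:**
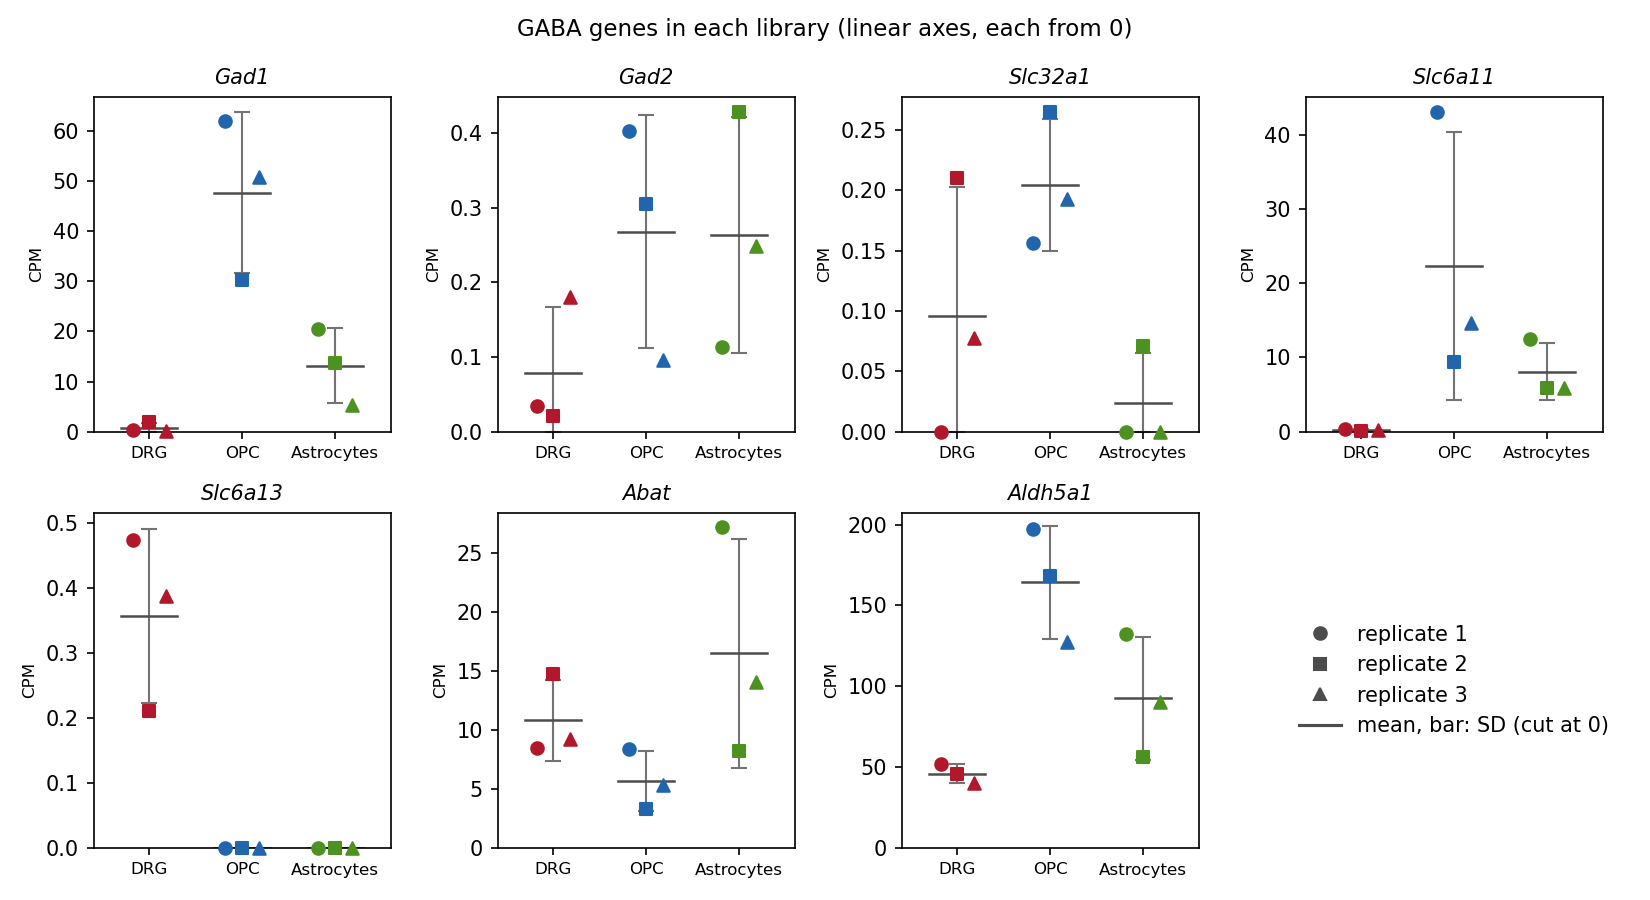
Level of each GABA gene in CPM (linear axes from 0, a scale of its own for each gene) in the 3 libraries of DRG, OPC and Astrocytes. Points are libraries, lines the mean and bars the SD, ended at 0. Gad1 and Slc6a11 are low in all 3 DRG libraries, Slc6a13 has reads in DRG only, and Gad2 and Slc32a1 reach at most 0.427 CPM in any library.

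Gad1, the decarboxylase that makes most of the GABA in the brain, was present in both glial cultures and scarce in DRG. It was measured at 0.372, 1.83 and 0.103 CPM in DRG replicates 1 to 3, at 61.9, 30.4 and 50.8 CPM in the OPC libraries and at 20.4, 13.8 and 5.39 CPM in the Astrocytes libraries. Every OPC library was above every Astrocytes library, and both glial groups were above every DRG library. The means were 0.769 ± 0.930 CPM in DRG, 47.7 ± 16.0 CPM in OPC and 13.2 ± 7.53 CPM in Astrocytes (SD, n = 3 each). The gene lies on chromosome 2 at 70561303-70602014 (GRCm38.p6) and is counted through 1 transcript. A bulk culture cannot tell fewer expressing cells from less RNA per cell, which holds for every difference given here.

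Gad1 was lower in DRG than in Astrocytes by a log2 fold change of -4.06 (SE 0.90, adjusted p = 0.00364), a 16.7-fold difference. It was lower in DRG than in OPC by -5.91 (SE 0.97, adjusted p = 0.000691), a 60.2-fold difference. Replicate 2 held 87 of the 102 Gad1 reads of DRG, and without it the differences were -5.82 against Astrocytes and -7.68 against OPC. Between the glial groups, Gad1 stood 1.85 higher in OPC (SE 0.80, adjusted p = 0.0788), which did not pass although the libraries did not overlap; it passed without DRG replicate 2 (adjusted p = 0.0228), without DRG replicate 3 (adjusted p = 0.0383) and in a fit of the OPC and Astrocytes libraries alone (1.73, adjusted p = 0.0274). The order of the means was OPC, Astrocytes and DRG, and whether OPC and Astrocytes were set apart depended on which libraries entered the fit.

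Markers of GABA-releasing interneurons were measured beside these Gad1 levels. Summed over 11 interneuron genes, DRG held 5.37 to 43.99 CPM, OPC 12.8 to 37.9 CPM and Astrocytes 15.2 to 38.8 CPM, with 2 of the 11 in DRG, 1 in OPC and 4 in Astrocytes at a mean of 1 CPM or more. In DRG the sum was led by Pvalb, at 40.1 CPM in replicate 1, a gene that proprioceptive sensory neurons also use. In OPC it was led by Calb2 (9.59, 18.03 and 35.3 CPM) and by its mean in Astrocytes by Dlx2 (8.95, 7.60 and 7.24 CPM). The others at a mean of 1 CPM or more in Astrocytes were Pvalb, Npy and Dlx1. Pvalb was at 10.7, 3.40 and 8.57 CPM there, Npy at 16.2, 0.665 and 1.05 CPM and Dlx1 at 2.73, 3.21 and 2.21 CPM. Lhx6 was at 0 in all 9 libraries, Vip at 0 in OPC and Dlx6 at 0 in Astrocytes. Lhx6 has 4 transcripts in the counts, and reads shared by them may have been set aside as ambiguous. Its 0 therefore need not mean that its RNA was absent. Sst, a transmitter peptide of many cortical interneurons, was at 0.124 ± 0.0742 CPM in DRG, 0.0155 ± 0.0134 CPM in OPC and 0.0567 ± 0.0756 CPM in Astrocytes (SD, n = 3 each). The part of such cells in the Gad1 level was not tested. In Astrocytes, the library with the lowest sum of OPC genes (341 CPM, replicate 1) had the highest Gad1 level, 20.4 CPM; replicates 2 and 3, with sums of 1203 and 1311 CPM, had 13.8 and 5.39 CPM. Replicate 1 also had the highest interneuron sum of Astrocytes, 38.8 CPM against 15.2 and 19.3 CPM in replicates 2 and 3. It is the library rich in microglial genes as well. The part of interneurons, OPC or other cells in the Gad1 level of Astrocytes was not tested.

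In DRG replicate 2, where Gad1 was highest, Olig1 of the oligodendrocyte line was at 2.80 CPM, against 0.169 and 0.800 CPM in replicates 1 and 3, and its partner Olig2 was at 0.463 CPM, against 0 and 0.361 CPM. Over the whole list of 7 OPC genes replicate 2 was instead the lowest, with sums of 16.1, 10.3 and 24.9 CPM in replicates 1 to 3, led by Sox10 (9.24, 4.21 and 16.3 CPM), which Schwann and satellite cells also use, and Cspg4 (6.43, 2.48 and 7.13 CPM). The 6 genes of spinal inhibitory neurons (Pax2, Pax8, Lbx1, Lhx1, Lhx5 and Tfap2b) that were picked after the Gad1 values had been seen summed to 0.135, 1.10 and 1.01 CPM in DRG replicates 1 to 3, to at most 0.0611 CPM in OPC and to 0.546 to 0.978 CPM in Astrocytes. The DRG sum rested mostly on Pax8. It was as high in replicate 3 as in replicate 2, while Gad1 was at 0.103 CPM in replicate 3. The part of either cell type in the Gad1 reads of DRG was not tested.

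Gad2, the decarboxylase linked to synaptic vesicles, was scarce everywhere. Its raw counts were 1, 1 and 7 in DRG, 18, 15 and 4 in OPC and 6, 18 and 9 in Astrocytes. The 3 groups overlapped, and the means were 0.0785 ± 0.0887 CPM in DRG, 0.268 ± 0.156 CPM in OPC and 0.263 ± 0.158 CPM in Astrocytes (SD, n = 3 each). The gene is at 22621015-22693877 on chromosome 2 and is counted through 1 transcript. No test of Gad2 passed: the log2 fold change was -1.69 in DRG against Astrocytes (SE 0.88, adjusted p = 0.124), -1.74 in DRG against OPC (SE 0.87, adjusted p = 0.113) and 0.05 in OPC against Astrocytes (SE 0.77, adjusted p = 0.967). DRG replicate 3 held 7 of the 9 DRG reads, and without it Gad2 passed as lower in DRG, at -3.16 against Astrocytes (adjusted p = 0.0326) and -3.22 against OPC (adjusted p = 0.0302).

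Per kilobase of transcript, Gad1 made up nearly all of the decarboxylase RNA of the glial cultures. Its share of the 2 genes was 99.6%, 99.4% and 99.9% in OPC and 99.7%, 98.2% and 97.4% in Astrocytes. In DRG it was 94.96%, 99.3% and 49.4%, the last from 4 Gad1 reads and 7 Gad2 reads. On this scale the level of Gad1 was 0.229 ± 0.277 in DRG, 14.2 ± 4.77 in OPC and 3.93 ± 2.24 CPM per kilobase in Astrocytes (SD, n = 3 each).

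Slc32a1, the vesicular carrier that marks GABA- or glycine-releasing terminals, was close to absent. It had 0, 10 and 3 reads in DRG, 7, 13 and 8 in OPC and 0, 3 and 0 in Astrocytes. All 3 OPC libraries had reads and 2 of the 3 Astrocytes libraries had none. Over the group, the ratio of CPM from summed counts was 9.06 in OPC over Astrocytes, with a 95% counting interval of 2.80 to 46.6. It was 4.92 in DRG over Astrocytes (1.35 to 26.9) and 0.543 in DRG over OPC (0.258 to 1.08). The intervals cover counting error only and not the spread between cultures, and 10 of the 13 DRG reads came from replicate 2, the library with the highest Gad1 level. The gene is at 158607260-158615747 on chromosome 2. Fitted with no filter on low counts, it did not pass in any comparison (adjusted p from 0.0724 to 0.447).

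Slc6a11, the carrier GAT3 that in the brain is a hallmark of astrocytes, was nearly silent in DRG and present in both glial cultures. It was measured at 0.406, 0.126 and 0.207 CPM in the DRG libraries, at 43.0, 9.40 and 14.6 CPM in the OPC libraries and at 12.5, 5.84 and 5.92 CPM in the Astrocytes libraries. No DRG library overlapped the glial ones, while OPC and Astrocytes overlapped. The means were 0.246 ± 0.144 CPM in DRG, 22.3 ± 18.1 CPM in OPC and 8.09 ± 3.83 CPM in Astrocytes (SD, n = 3 each). It was lower in DRG than in Astrocytes by -5.07 (SE 0.75, adjusted p = 0.000393) and lower in DRG than in OPC by -6.54 (SE 0.79, adjusted p = 0.000123), differences of 33.7-fold and 92.8-fold. The gene is at 114131241-114249886 on chromosome 6.

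Slc6a11 did not pass in OPC against Astrocytes (log2 fold change 1.46, SE 0.61, adjusted p = 0.0716), and single libraries moved that result. Without OPC replicate 1 it was 0.58 (adjusted p = 0.383), without OPC replicate 2 it passed at 1.84 (adjusted p = 0.0380), and without Astrocytes replicate 1 it passed at 1.93 (adjusted p = 0.0394). The OPC library with 43.0 CPM was replicate 1, the one with high Gpr17 and Myrf; their part in its Slc6a11 level was not tested. Without it the difference of DRG from OPC was -5.64 (adjusted p = 0.000183).

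**Figure D2:**
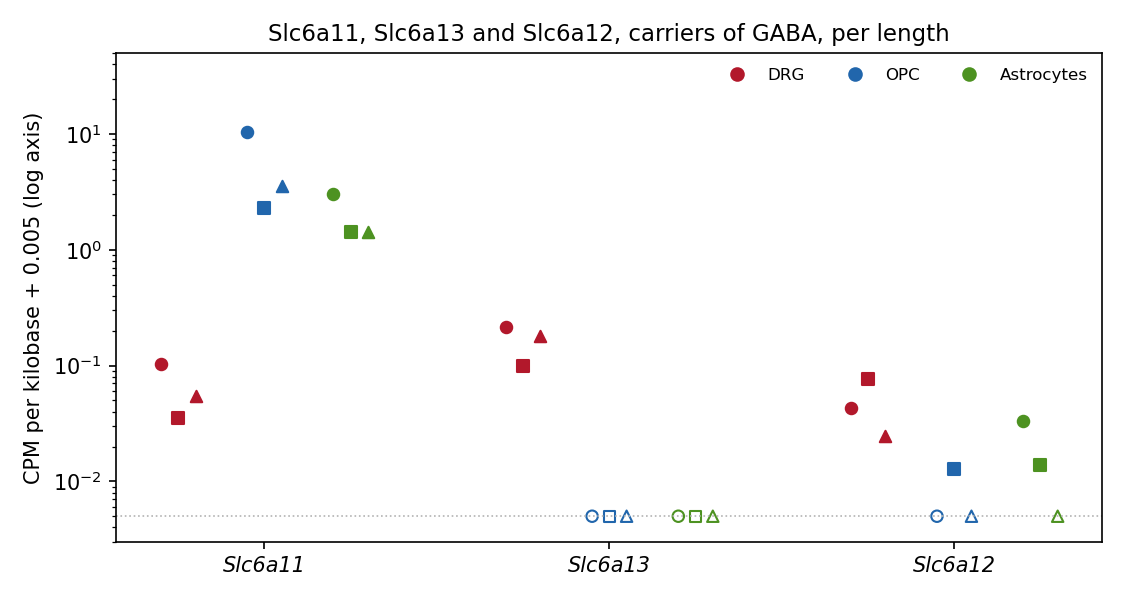
Level of Slc6a11, Slc6a13 and Slc6a12, plasma membrane carriers of GABA, in CPM per kilobase of transcript on a log axis, 0.005 added; circles, squares and triangles are replicates 1, 2 and 3, and hollow symbols on the dotted line have 0 reads. Slc6a11 is the highest of the 3 in every OPC and Astrocytes library, and the 3 carriers reach at most 0.212 CPM per kilobase in DRG.

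Slc6a13, the carrier GAT2, was the member with reads in DRG alone. It had 14, 10 and 15 reads in DRG (0.474, 0.211 and 0.387 CPM) and 0 reads in all 3 OPC and all 3 Astrocytes libraries. Set against a floor of 3 reads over a group (0.0222 CPM in OPC and 0.0228 CPM in Astrocytes), it was at least 15.2-fold higher in DRG than in OPC and at least 14.8-fold higher than in Astrocytes. It fell short of the filter on low counts; fitted with no filter, it passed as higher in DRG, with adjusted p = 0.00344 against Astrocytes and 0.00336 against OPC. The gene is at 121300288-121337721 on chromosome 6, next to Slc6a12, another carrier that moves betaine and GABA. Slc6a12 had 3, 9 and 2 reads in DRG, 0, 1 and 0 in OPC and 4, 1 and 0 in Astrocytes.

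Genes of meningeal, fibroblast and mural cells were measured beside Slc6a13, since GAT2 is known from the meninges. Over 10 such genes the sum was 272, 153 and 264 CPM in DRG, 1.39, 0.936 and 1.30 CPM in OPC and 27.7, 314 and 227 CPM in Astrocytes. At a mean of 1 CPM or more were 7 of the 10 in DRG, 0 in OPC and 4 in Astrocytes, and Pdgfrb was at 0 in OPC. Over the DRG libraries, 7 of the 10 had the same order as Slc6a13, and Dcn, Pdgfrb and Rgs5 did not. That order was not particular to this list. Slc1a3 (3.59, 0.821 and 2.66 CPM) and Fabp7 (8.73, 2.84 and 4.85 CPM) of other lists had it too, while Gfap (2.27, 0.842 and 2.50 CPM) did not. The share of all genes in that order was not counted. The order of Slc6a13 rests on 14, 10 and 15 reads, too few to set replicates 1 and 3 apart. Col1a1, a fibrillar collagen, was at 98.8, 69.9 and 98.4 CPM in DRG and at 1.02, 128 and 90.8 CPM in Astrocytes, where Slc6a13 had 0 reads. The means of Foxc1, Tbx18, Crabp2 and Pdgfrb in DRG were below those in Astrocytes. Lum, a matrix proteoglycan of fibroblasts, was at 7.04, 2.02 and 4.39 CPM in DRG, the same order of libraries as for Slc6a13, at most 0.112 CPM in OPC and at most 0.332 CPM in Astrocytes. Aldh1a2, an enzyme of retinoic acid synthesis found in meningeal fibroblasts, was at 12.7, 1.94 and 5.29 CPM in DRG, again in that order, at most 0.201 CPM in OPC and at most 0.309 CPM in Astrocytes. The part of such cells in the Slc6a13 reads was not tested.

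Abat, the transaminase that starts GABA breakdown, had the smallest differences of the 5 tested members between DRG and either glial culture. It was measured at 8.49, 14.8 and 9.19 CPM in DRG, at 8.38, 3.32 and 5.29 CPM in OPC and at 27.2, 8.19 and 14.1 CPM in Astrocytes. The DRG libraries overlapped those of Astrocytes and lay just above all those of OPC. The means were 10.8 ± 3.45 CPM in DRG, 5.66 ± 2.55 CPM in OPC and 16.5 ± 9.73 CPM in Astrocytes (SD, n = 3 each). Abat did not pass in DRG against Astrocytes (log2 fold change -0.61, SE 0.49, adjusted p = 0.311) or in DRG against OPC (0.93, SE 0.50, adjusted p = 0.131).

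Abat was lower in OPC than in Astrocytes by -1.54 (SE 0.50, adjusted p = 0.0284), a 2.91-fold difference, although 1 OPC library lay above the lowest Astrocytes library. That call was lost without Astrocytes replicate 1 (-0.97, adjusted p = 0.103), without OPC replicate 2 (-1.26, adjusted p = 0.0976) and without OPC replicate 3 (-1.66, adjusted p = 0.0571). The Astrocytes library with 27.2 CPM was replicate 1, the one rich in microglial genes, and their part in its Abat level was not tested. In order of level, Astrocytes came before DRG and DRG before OPC, and neither pair of neighbours was set apart.

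The counts of Abat may cover part of the gene only. Abat lies on chromosome 16 at 8513429-8621568 and has 2 transcripts in the counts. All 2414 bases of the shorter one are shared with the longer one, and the shorter one had 0 reads in all 9 libraries. The counting mode is not given in the sources used here. If reads on shared bases were set aside as ambiguous, as that 0 would have it, the 4367 Abat reads come from the 2222 bases that the longer transcript has to itself, 1998 of them at its 3′ end. The levels of Abat per kilobase use this inferred length. Its CPM and its tests between cultures use no length, but in that case they too describe only this part of the longer transcript.

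Aldh5a1, which ends the route from GABA to succinate, was present in every culture. It was measured at 51.8, 45.8 and 40.2 CPM in DRG, at 197, 168 and 127 CPM in OPC and at 132, 56.1 and 89.9 CPM in Astrocytes. All DRG libraries were below all glial ones, and the highest Astrocytes library was above the lowest OPC library. The means were 45.9 ± 5.85 CPM in DRG, 164 ± 35.1 CPM in OPC and 92.7 ± 38.0 CPM in Astrocytes (SD, n = 3 each). Per kilobase the levels were 8.13 ± 1.03 in DRG, 29.1 ± 6.22 in OPC and 16.4 ± 6.73 CPM per kilobase in Astrocytes (SD, n = 3 each), and on that scale Aldh5a1 was the highest of the 7 members in all 9 libraries.

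Aldh5a1 was lower in DRG than in OPC by -1.84 (SE 0.31, adjusted p = 0.00079), a 3.58-fold difference. It was lower in DRG than in Astrocytes by -1.01 (SE 0.30, adjusted p = 0.0164), a 2.02-fold difference. That call was lost without Astrocytes replicate 1, where the difference shrank to -0.67 (adjusted p = 0.0522). It was also lost without DRG replicate 2 (-1.0, adjusted p = 0.0506) and without DRG replicate 3 (-0.92, adjusted p = 0.0616), where the difference stayed close to that of all libraries. It was higher in OPC than in Astrocytes by 0.83 (SE 0.30, adjusted p = 0.0441), a 1.77-fold difference, and leaving out any 1 of the 9 libraries other than Astrocytes replicate 1 ended that call, with adjusted p from 0.0532 to 0.125. The call was also lost with library size alone (0.71, adjusted p = 0.0796), with DESeq2 (0.71, adjusted p = 0.0675), with a filter of at least 1 CPM in 3 libraries (0.79, adjusted p = 0.0525) and with only the compared libraries (0.70, adjusted p = 0.113).

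Aldh5a1 lies on chromosome 13 at 24907579-24937661 and overlaps 2 genes of the opposite strand, with which it shares 796 and 203 of its 5647 exon bases. One of them, 4932702P03Rik, had 3 reads in DRG, 7 in OPC and 5 in Astrocytes. The other, 9330162012Rik, had 106, 60 and 428. Whether strand was used in counting is not given in the sources used here, so reads from the overlapping parts cannot be told apart. Both sums were small beside the 5263 reads of Aldh5a1 in DRG, 22369 in OPC and 12630 in Astrocytes.

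**Figure D3:**
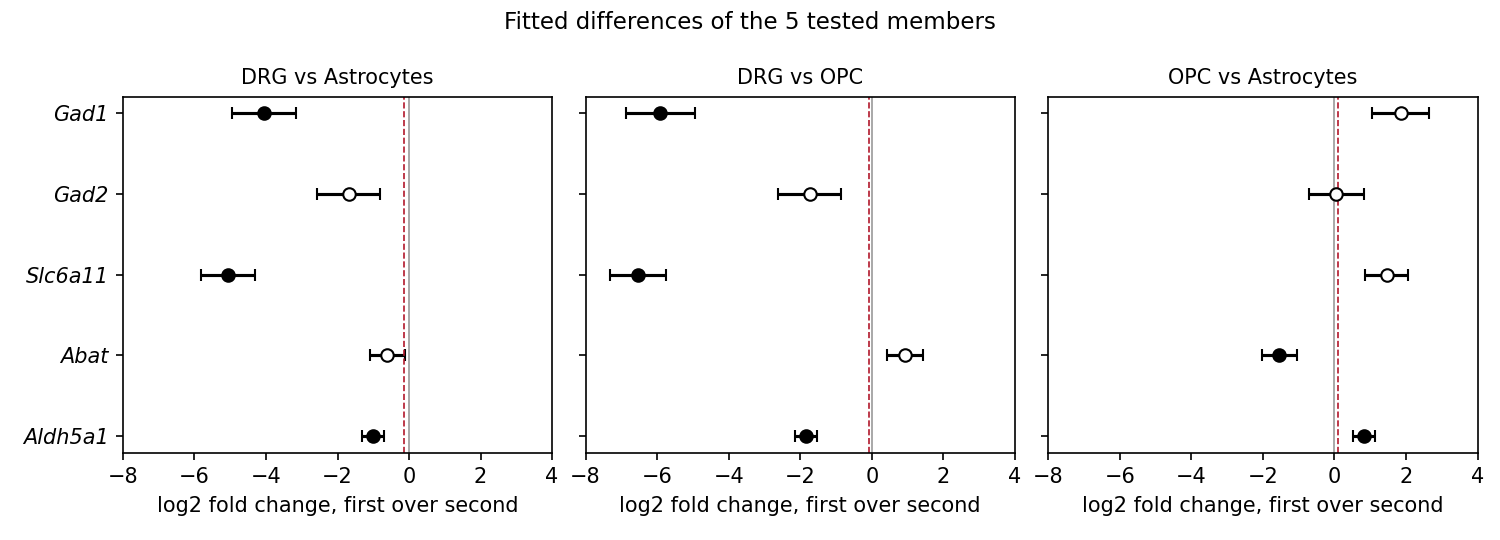
Log2 fold change of the 5 tested members (first-named cell type over second) with bars of 1 SE; filled points passed at an adjusted p under 0.05, and dashed lines mark the median of all tested genes. Gad1, Slc6a11 and Aldh5a1 are filled and below 0 in both DRG panels, and Abat and Aldh5a1 are filled on opposite sides of 0 in OPC vs Astrocytes.

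Of 7 other SLC6 carriers described, 4 were tested and all 4 passed in each comparison, 2 higher and 2 lower each time. Of all tested genes, 60.2% passed in DRG against Astrocytes, 59.5% in DRG against OPC and 51.8% in OPC against Astrocytes. These shares also stand beside the counts of each list below. Their median differences were 0.25 in DRG against Astrocytes, 1.00 in DRG against OPC and 0.03 in OPC against Astrocytes. Slc6a17, a vesicular carrier of neutral amino acids in neurons, was at 366 ± 106 CPM in DRG, 57.0 ± 21.2 CPM in OPC and 17.9 ± 5.54 CPM in Astrocytes and was higher in DRG by 4.36 against Astrocytes (adjusted p = 2.04e-05) and by 2.68 against OPC (adjusted p = 0.000211). Slc6a6, the taurine carrier, was at 68.8 ± 8.996 CPM in DRG, 111 ± 7.18 CPM in OPC and 194 ± 55.8 CPM in Astrocytes and was lower in DRG in both comparisons (adjusted p = 0.000359 against Astrocytes and 0.0196 against OPC). Slc6a9, a plasma membrane carrier of glycine, was at 14.4 ± 1.48 CPM in DRG, 55.6 ± 13.2 CPM in OPC and 30.6 ± 10.6 CPM in Astrocytes and was lower in DRG by -1.08 against Astrocytes (adjusted p = 0.00837) and by -1.95 against OPC (adjusted p = 0.000383).

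GABA is drawn from glutamate, and the genes that supply glutamate and glutamine did not move one way. Of 8 tested, 4 were higher and 4 lower in DRG against Astrocytes, 4 higher and 2 lower in DRG against OPC, and 2 higher and 3 lower in OPC against Astrocytes, with median differences of 0.23, 0.27 and -0.28. Slc38a2, a glutamine carrier, was at 668 ± 32.3 CPM in DRG, 373 ± 95.2 CPM in OPC and 260 ± 65.6 CPM in Astrocytes and was higher in DRG in both comparisons (adjusted p = 0.00126 against Astrocytes and 0.0150 against OPC). Glul, glutamine synthetase, was at 112 ± 24.2 CPM in DRG, 235 ± 49.3 CPM in OPC and 725 ± 182 CPM in Astrocytes, lower in DRG than in Astrocytes by -2.70 (adjusted p = 3.67e-05) and lower in OPC than in Astrocytes by -1.63 (adjusted p = 0.000835). Glud1, glutamate dehydrogenase, was at 337 ± 87.4 CPM in DRG, 333 ± 31.5 CPM in OPC and 626 ± 78.3 CPM in Astrocytes, and did not pass in DRG against OPC (0.02, adjusted p = 0.953).

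GABA can also be made from putrescine, and 7 genes of that route were tested. In DRG against Astrocytes 0 were higher and 2 lower, in DRG against OPC 2 were higher and 1 lower, and in OPC against Astrocytes 0 were higher and 5 lower, with median differences of -1.36, 0.99 and -1.70. Of all tested genes, 26.3% were higher and 25.5% lower in OPC against Astrocytes, with a median difference of 0.09. Odc1, which makes putrescine, was at 85.9 ± 12.5 CPM in DRG, 732 ± 102 CPM in OPC and 591 ± 161 CPM in Astrocytes and was lower in DRG by -2.78 against Astrocytes (adjusted p = 2.37e-05) and by -3.09 against OPC (adjusted p = 1.61e-05). Aldh1a1, an aldehyde dehydrogenase that makes GABA in midbrain neurons of the mouse, was at 2.84, 1.98 and 4.002 CPM in DRG, 0.738, 0.834 and 1.13 CPM in OPC and 950, 118 and 308 CPM in Astrocytes. Its lowest Astrocytes library lay far above every DRG and OPC library. The Astrocytes library with 950 CPM was replicate 1, the one rich in microglial genes. Maob (33.0, 2.61 and 6.44 CPM), Aldh2 (263, 99.9 and 124 CPM) and Sat1 (2.65, 1.02 and 0.442 CPM) also passed as lower in OPC and were highest in that library. Maoa passed as lower in OPC too but was not highest there (129.5, 148.6 and 140.8 CPM). The part of microglia in these levels was not tested. Aldh1a1 was lower in DRG than in Astrocytes by -7.29 (adjusted p = 7.17e-05) and lower in OPC than in Astrocytes by -8.99 (adjusted p = 6.86e-05). Maoa, monoamine oxidase A, was at 135 ± 26.2 CPM in DRG, 99.2 ± 8.27 CPM in OPC and 140 ± 9.60 CPM in Astrocytes, and did not pass in DRG against Astrocytes (-0.04, adjusted p = 0.845).

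For vitamin B6, the cofactor of both decarboxylases and of Abat, 2 genes are described, and they had separate patterns. Pdxk, which phosphorylates the vitamin, was at 53.7 ± 10.8 CPM in DRG, 140 ± 30.7 CPM in OPC and 115 ± 36.04 CPM in Astrocytes. It was lower in DRG in both comparisons, by -1.10 against Astrocytes (adjusted p = 0.00755) and by -1.38 against OPC (adjusted p = 0.00240). Pdxp, the phosphatase that undoes the step, was at 115 ± 36.4 CPM in DRG, 78.3 ± 9.77 CPM in OPC and 11.1 ± 4.11 CPM in Astrocytes, higher in DRG than in Astrocytes by 3.37 (adjusted p = 3.69e-05) and in OPC than in Astrocytes by 2.81 (adjusted p = 0.000166). In DRG against OPC it did not pass (0.56, adjusted p = 0.141).

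Past succinic semialdehyde, 11 genes were tested. In DRG against Astrocytes 4 were higher and 4 lower, in DRG against OPC 2 were higher and 4 lower, and in OPC against Astrocytes 4 were higher and 1 lower, with median differences of 0.10, -0.41 and -0.10. Akr1a1, a reductase that can turn succinic semialdehyde into gamma-hydroxybutyrate, was at 766 ± 33.2 CPM in DRG, 709 ± 153 CPM in OPC and 471 ± 20.4 CPM in Astrocytes, above Astrocytes by 0.70 in DRG (adjusted p = 0.00914) and by 0.59 in OPC (adjusted p = 0.0244). Sdha, a subunit of succinate dehydrogenase, was at 536 ± 37.1 CPM in DRG, 415 ± 17.8 CPM in OPC and 501 ± 85.1 CPM in Astrocytes and did not pass in any comparison. Its partner Sdhb was at 227 ± 18.3 CPM in DRG, 302 ± 60.1 CPM in OPC and 121 ± 12.2 CPM in Astrocytes and was higher than in Astrocytes in both DRG (0.92, adjusted p = 0.00212) and OPC (1.33, adjusted p = 0.000432).

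Of the 3 genes of homocarnosine, a dipeptide of GABA and histidine, 2 were tested. Carns1, which joins the dipeptide, was at 9.03 ± 1.23 CPM in DRG, 1.04 ± 0.329 CPM in OPC and 15.7 ± 2.93 CPM in Astrocytes (SD, n = 3 each), and its libraries did not overlap between the cultures. It was lower in OPC than in Astrocytes by -3.91 (adjusted p = 4.0e-05), higher in DRG than in OPC by 3.12 (adjusted p = 5.42e-05) and lower in DRG than in Astrocytes by -0.79 (adjusted p = 0.0435). Cndp2, which splits such dipeptides, did not pass in any comparison, and Cndp1 had 1 read in all 9 libraries together.

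**Figure D4:**
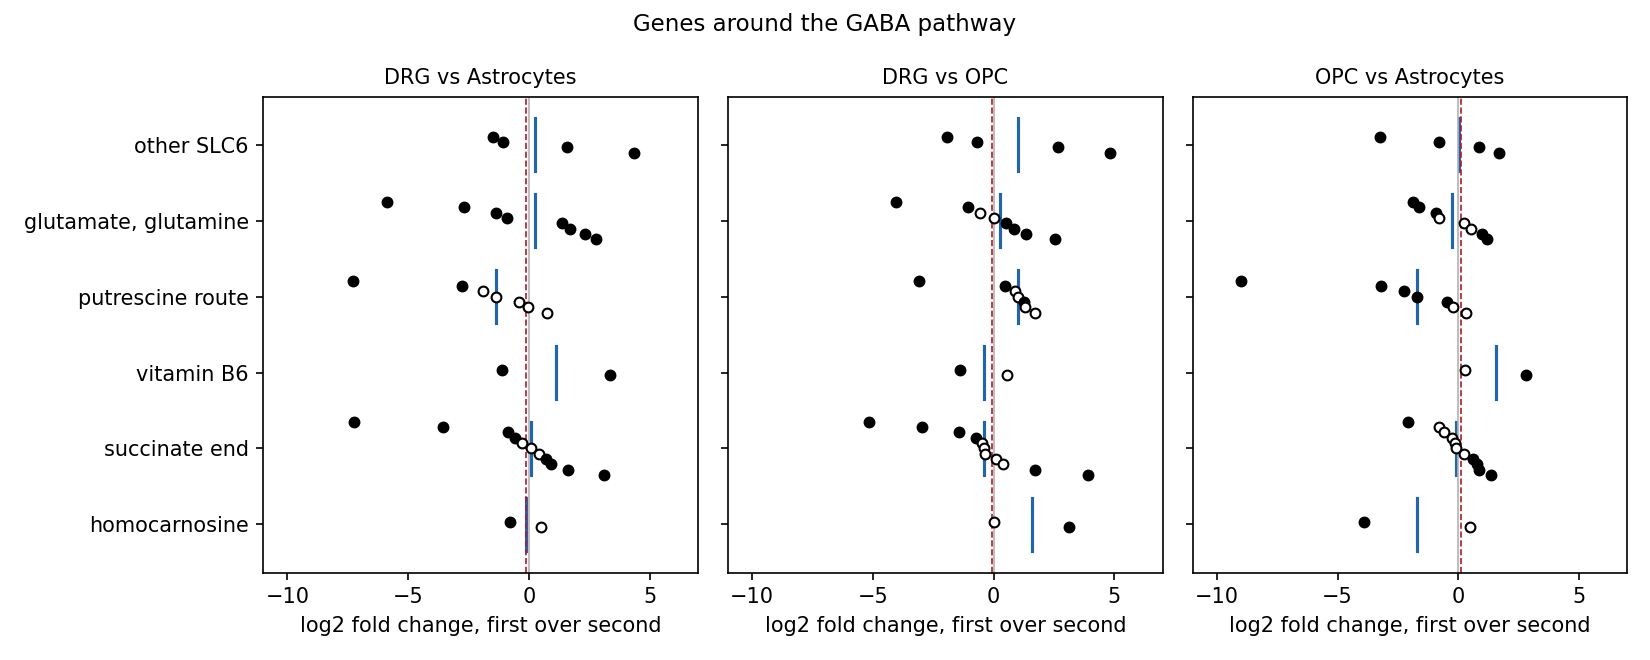
Log2 fold change (first-named cell type over second) of each tested gene in the 6 lists around the GABA pathway; filled points passed at an adjusted p under 0.05. Blue bars are list medians and red dashed lines the median of all tested genes. Filled points lie on both sides of 0 in 4 of the 6 lists in each DRG panel, and 5 of the 7 putrescine genes are filled and below 0 in OPC vs Astrocytes. Of all tested genes, 25.5% passed as lower in OPC in that comparison.

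The genes whose levels followed each member most closely over the 9 libraries were found among 14847 others by Pearson's r of log2 CPM (prior count 2), as a description of 9 libraries in 3 clusters. For Gad1 they were Cry1 (r = 0.978), Sik2 (0.974) and Bcan (0.974); Bcan, a proteoglycan of the brain matrix, averaged 3.57 CPM in DRG, 515 CPM in OPC and 104 CPM in Astrocytes. For Slc6a11 they were Marchf8 (0.996), Zfp646 (0.990) and Tm7sf3 (0.988). For Aldh5a1 they were Kdm4c (0.983), Naa35 (0.976) and Tnr (0.972), the last a matrix protein of OPC and oligodendrocytes at 3.32 CPM in DRG, 282 CPM in OPC and 33.0 CPM in Astrocytes. For Abat they were Gatd3a (0.952), 8430429K09Rik (0.946) and Abhd3 (0.939). For Gad2, whose levels rest on few reads, they were Cntd1 (0.932), Abcd3 (0.909) and Tbc1d15 (0.897).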

How the data were processed

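Poly(A) RNA of the 9 cultures was made into stranded mRNA libraries, per the labels' protocols. The authors aligned reads to mm10 with TopHat2 and counted them with HTSeq, per the submitters' processing notes; tool versions, annotation release, counting mode and strand setting are not given in the sources used here. Each table that the authors deposited lists raw, unnormalized counts for 33787 RefSeq transcripts. The files list 22.0% to 24.7% of all reads as ambiguous, which may include reads shared by transcripts of a gene, beside 6.73% to 11.4% in no feature and 7.49% to 13.6% aligned more than once; these stayed out of library sizes. Gene names came from RefSeq (GRCm38.p6) for 33315 transcripts and from GENCODE vM21 for 193, while 279 kept their identifier, and counts were added per gene.

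Groups and replicates follow the titles. All 9 libraries were fitted in 1 model with edgeR 4.0.16 (R 4.3.3, TMM factors, filterByExpr with a minimum count of 10, quasi-likelihood F-test, 6 residual degrees of freedom). The p-values were adjusted over the 14848 genes that passed the filter. The fit was checked on simulated counts with a small set of genes raised in DRG and all others equal. In these data most tested genes passed in each comparison, a setting that the check did not cover. SEs are the size of the log2 fold change over the square root of F. Fitted differences were recomputed for the members under 17 alternatives per comparison. Transcript lengths come from GENCODE vM21; for Abat, its 2222 unshared bases, on the inference that shared reads were not counted. Intervals are at 95% and floors at 3 counts, for counting error only. The 7 members, and the lists around them, were chosen with earlier results of these data known, and the spinal list after the Gad1 values. Of each pathway list the 3 genes with the highest mean CPM are named, with the carriers of GABA and the 3 genes most like each tested member. The putrescine genes that passed as lower in OPC than in Astrocytes are named as well. Some genes of these lists are not reported here and were left out of the lists' counts, medians and sums.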

Additional observations from a re-analysis of the deposited data

How the results depend on the processing

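Of 250 results of the tested members under 17 alternatives per comparison (other scaling, DESeq2 1.42.0, other filters, other libraries), 214 kept their direction and their side of the threshold. Gad1 and Slc6a11 were lower in DRG than in both glial groups under all 17, and Aldh5a1 lower in DRG than in OPC. Aldh5a1 as lower in DRG than in Astrocytes was lost under 4, the highest adjusted p being 0.0616; Abat as lower in OPC than in Astrocytes under 4, up to 0.123; and Aldh5a1 as higher in OPC under 12, up to 0.125. Gad1 as higher in OPC than in Astrocytes passed under 3, the lowest adjusted p being 0.0228. The number of tested members passing in OPC against Astrocytes was 2; it was 1 with library size alone, with DESeq2, with a filter of at least 1 CPM in 3 libraries, and without Astrocytes replicate 1 and OPC replicate 3 together, and 0 to 2 with a library left out. Gad2 turned to slightly lower in OPC than in Astrocytes with library size alone (-0.07), with DESeq2 (-0.08), with only the compared libraries (-0.09) and without that pair of libraries (-0.10), and ran from -0.35 to 0.60 with a library left out. Abat in DRG against Astrocytes was 0.05 without that pair and ran from -0.93 to -0.05 with a library left out. The cause of these changes was not tested. Library size alone moved the median of all genes by -0.26 in DRG against Astrocytes, -0.15 in DRG against OPC and -0.11 in OPC against Astrocytes, and DESeq2 moved the second by 0.17; no call on Gad1 or Slc6a11 in DRG changed. Same-numbered replicates correlated from -0.0357 to 0.128 in their deviations from the group means, and differently numbered ones from -0.13 to 0.0777. With 3 libraries per group these values cannot decide whether the numbers pair the cultures, and the labels do not say. With a replicate block, 8747, 8694 and 7421 genes passed, against 8938, 8833 and 7689 without it. With that block, Slc6a11 passed as higher in OPC than in Astrocytes (1.26, adjusted p = 0.0100). Depth limits the scarce members: Gad2 had 9 reads in DRG, 37 in OPC and 33 in Astrocytes, and Slc32a1 had 13, 28 and 3 in that order, so counting error alone is wide for both and small differences were not detectable at this depth.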
